A study of Homo sapiens with 15 samples.

Results

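The sterol and fatty acid synthesis genes are 31 genes, given by their symbols: 5 regulators of the pathway, 7 genes of the mevalonate arm, 11 of the sterol arm, 1 sterol carrier and 7 of the fatty acid arm. All 31 were found among the 60675 genes of the table, and all 31 were among the 17780 genes that passed the filter on low counts. RNA was sequenced from HT1080, an established human fibrosarcoma line. In KDAC4 H803A (4 samples) and KDAC7 H709A (4 samples) a class IIa lysine deacetylase carried a substitution that the series title calls inactive. KDAC4 and KDAC7 are other names of HDAC4 and HDAC7. In KDAC4 H976Y (4 samples) KDAC4 carried a substitution that replaces a histidine by a tyrosine, and the series design speaks of enhanced as well as inactivated enzymes. The remaining 3 samples were wild-type cells kept for 2 days with 1 µM TMP195, an inhibitor of class IIa deacetylases, and the variant cells had no inhibitor. Untreated wild-type cells were not analysed here, so each group is set against another group of the series and never against an untreated control. The growth medium held serum, per the labels' protocols, and ribosomal RNA was depleted from total RNA. The labels do not say whether each variant line was 1 clone or whether replicates were separate cultures, so p-values measure the spread among these samples, which may be technical.

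Cells make cholesterol from acetyl-CoA through mevalonate, farnesyl diphosphate, squalene and lanosterol, and make fatty acids from the same acetyl-CoA through malonyl-CoA. When sterols run low, SCAP carries the membrane-bound SREBP transcription factors from the endoplasmic reticulum to the Golgi, where proteases free their active part, and INSIG proteins hold SCAP back when sterols are plentiful. SREBP-2, from SREBF2, mainly drives the sterol genes, and the forms of SREBP-1 from SREBF1 act more on fatty acid genes.

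The column of KDAC4 H803A replicate 4 held gene lengths in place of counts, which left 14 count libraries: 3 of KDAC4 H803A, 4 of KDAC4 H976Y, 4 of KDAC7 H709A and 3 of TMP195. Total counts ran from 6151417 to 24297525, and levels are given as CPM, edgeR's normalised counts per unit of library size. One CPM stood for 4.86 to 23.9 counts. Counts per gene do not show a point substitution, so the variants could not be checked from them. Mesenchymal markers summed to 3365 to 8152 CPM, whereas the epithelial and the blood markers reached at most 0.282 and 0.317 CPM in any library. Endothelial, hepatocyte and adipocyte markers summed to at most 3.64, 1.75 and 0.325 CPM. VIM, FN1 and CD44 made up nearly all of the mesenchymal sum. Of the 9 mesenchymal markers, COL3A1 reached at most 0.0868 CPM, S100A4 1.13 and THY1 1.75 in any library, and COL1A2 was at 0 in all KDAC7 H709A libraries and at a mean of 0.0211 CPM in KDAC4 H803A.

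Libraries did not all lie with their label. KDAC4 H803A 1 was nearest to KDAC7 H709A 4, at a median absolute difference of 0.11 log2 units over genes, the smallest of any pair of libraries, and lay 1.04 to 1.08 from the other KDAC4 H803A libraries. KDAC7 H709A 1 was nearest to KDAC4 H803A 3, at 0.34, and lay 0.77 to 0.96 from its own group. Whether labels were exchanged was not tested, and every value of the libraries labelled KDAC4 H803A and KDAC7 H709A depends on the labels. Counts between groups are therefore given with all 14 libraries and again without the libraries labelled KDAC4 H803A 1 and KDAC7 H709A 1. KDAC7 H709A 4 was in turn nearest to KDAC4 H803A 1 and lay 0.31 to 0.93 from its own group. It was kept in the fit without those libraries. Counts with KDAC7 H709A 4 left out too are given at the end. The median of the genes richest in G and C minus that of the poorest was 1.72 and 1.67 log2 units in KDAC4 H803A 2 and 3 and 1.52 in KDAC7 H709A 1, against values from -1.40 to 0.62 in the other 11 libraries. In KDAC4 H976Y, 16.1% to 31.5% of counts came from the ribosomal RNAs of mitochondria, against at most 0.345% in any other library, and the part of this share in the results was not tested. Fits with offsets for GC content and length are given for the calls they end and for SREBF1, ELOVL6, HMGCS1 and HSD17B7.

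Most of the 31 genes were low in the TMP195 libraries and in KDAC4 H803A 2 and 3, and high in KDAC7 H709A 2, 3 and 4 and KDAC4 H803A 1, as the map of every gene in every library shows. For each library, the deviation of each gene's log2 CPM from its mean over the 14 libraries was taken, and the median over the 31 genes is given. That median was -0.66, -0.62 and -0.72 in the 3 TMP195 libraries, and 5, 6 and 2 of the 31 genes there lay above their own mean. In KDAC7 H709A 2, 3 and 4 it was 0.60, 0.74 and 0.46, and in KDAC7 H709A 1 it was 0.05. KDAC4 H803A 1 stood at 0.54, apart from KDAC4 H803A 2 and 3 at -0.46 and -0.71. The KDAC4 H976Y libraries lay between, from -0.27 to 0.18. Over all genes tested the same median stayed between -0.01 and 0.06 in every library. By group means, TMP195 was the lowest group for 24 of the 31 genes and KDAC7 H709A the highest for 23. In bulk RNA, fewer cells that express a gene and less of its RNA per cell cannot be told apart.

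**Figure D1:**
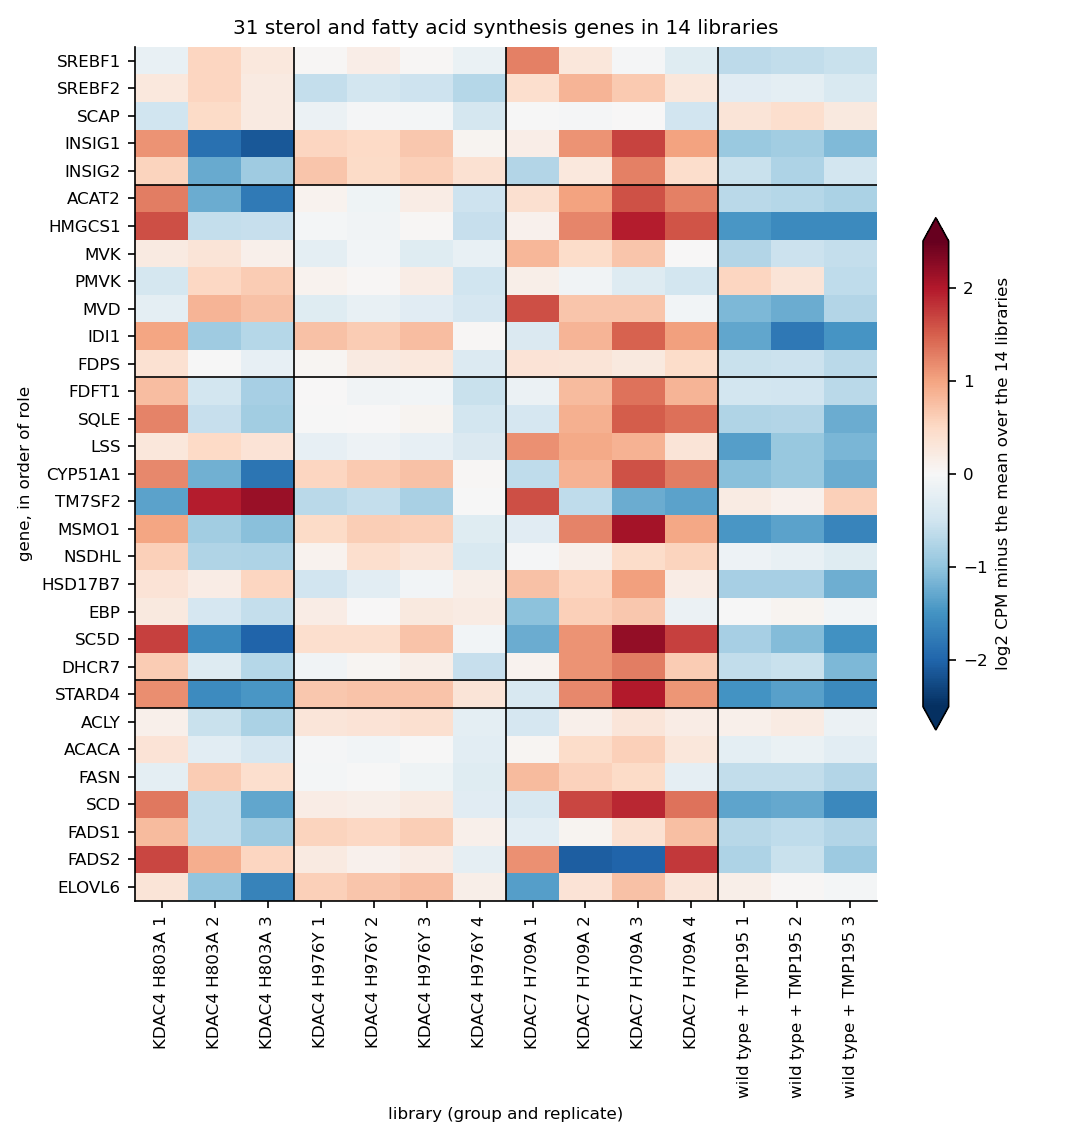
Heat map of the 31 genes (rows, in order of role with lines between roles) in the 14 count libraries (columns, with lines between groups). Colour gives log2 CPM minus the gene's mean over the 14 libraries, red above and blue below. The 3 TMP195 columns are mostly blue, with library medians of -0.66, -0.62 and -0.72, and KDAC4 H803A 1 resembles KDAC7 H709A 2, 3 and 4 more than KDAC4 H803A 2 and 3.

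In TMP195-treated cells, every one of the 31 genes called with all 14 libraries was lower than in the variant it was set against. A gene was called when edgeR's quasi-likelihood test gave a Benjamini-Hochberg adjusted p under 0.05 over all genes tested. Against KDAC7 H709A, 14 of the 31 genes were lower with TMP195 and 0 were higher, beside 6.29% of all genes called in either direction and 4.31% called lower. Against KDAC4 H976Y, 6 were lower and 0 higher, beside 16.5% called in either direction and 8.55% called lower, so that the share of the 31 genes was near the background in either direction. Against KDAC4 H803A, 5 were lower and 0 higher, beside 5.34% called in either direction and 3.78% called lower. The median log2 fold change of the 31 genes was -1.33, -0.66 and -0.84 in these comparisons, whereas over all genes it was -0.07, 0.03 and -0.11. The 3 comparisons share the TMP195 libraries, so their lists are not independent of each other.

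Ranges ranked the comparisons as the counts of called genes did, whereas the medians put KDAC4 H803A before KDAC4 H976Y. All 3 TMP195 libraries lay below every KDAC7 H709A library for 22 of the 31 genes, against 11.8% of all genes. They lay below every KDAC4 H976Y library for 20 genes (26.6% of all genes) and above for 3, SREBF2, SCAP and TM7SF2 (27.2%). Against KDAC4 H803A, 12 genes lay below without overlap (11.4%). Without KDAC4 H803A 1 and KDAC7 H709A 1, more of all genes passed the test, and the counts read against a higher background. Then 25 genes were lower and 2 higher than in KDAC7 H709A, beside 47.6% of all genes called and 26.8% called lower. Against KDAC4 H976Y the counts were 21 lower and 2 higher (48.3% called, 26.2% lower), and against KDAC4 H803A 11 lower and 4 higher (41.6% called, 21.5% lower). The share called against KDAC4 H803A was near the background in either direction. In that fit the median of the 31 genes against KDAC4 H803A was -0.22, against -0.84 with all libraries. Fits of the 2 compared groups alone ended all calls of HMGCS1, MVK, MVD and HSD17B7 against KDAC4 H803A, and those of MVK, MVD and HSD17B7 between KDAC7 H709A and KDAC4 H976Y. Without the filter on low counts, the calls of FDPS and FADS1 with TMP195 against KDAC4 H976Y, of MVK against KDAC4 H803A, and of MVK and HSD17B7 between KDAC7 H709A and KDAC4 H976Y were lost.

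**Figure D2:**
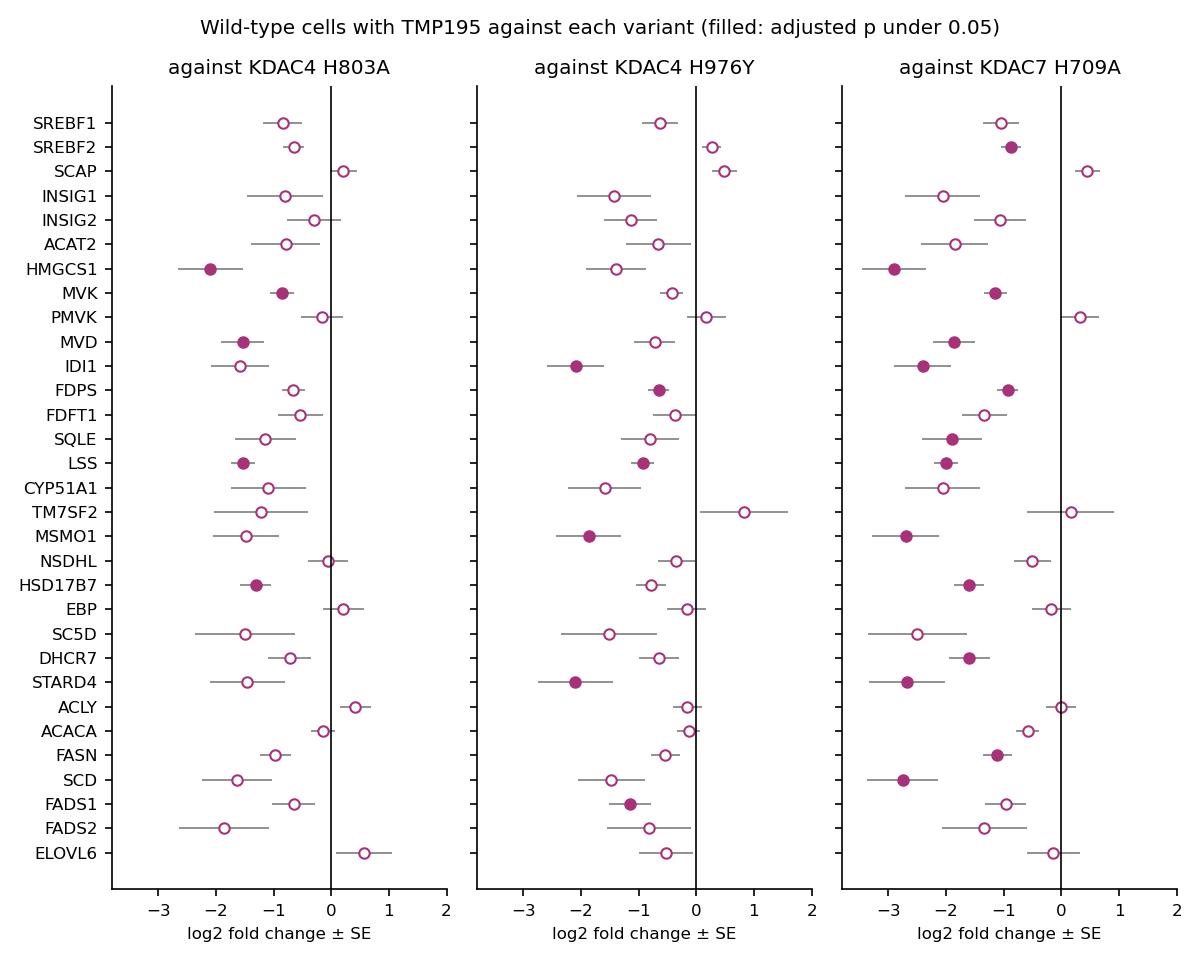
Log2 fold change (points) with its SE (bars) of wild-type cells with TMP195 against each variant, for the 31 genes in order of role, with all 14 libraries in the fit. Filled points have an adjusted p under 0.05. Points lie to the left of 0 for 27 genes against KDAC4 H803A, 27 against KDAC4 H976Y and 28 against KDAC7 H709A.

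Among the variants, KDAC7 H709A exceeded KDAC4 H976Y for SREBF2, MVK, MVD, LSS and HSD17B7. Of the 31 genes, 5 were called higher in KDAC7 H709A and 0 lower, beside 12.5% of all genes called and 7.28% called higher, a share near the background in either direction, and the median log2 fold change was 0.58 against 0.09 over all genes. Every KDAC7 H709A library lay above every KDAC4 H976Y library for 8 genes, beside 11.2% of all genes. KDAC4 H803A differed from KDAC4 H976Y in 1 gene, SREBF2, which was higher, a share below the 15.1% of all genes called and the 9.21% called higher. The 2 groups did not overlap, with KDAC4 H803A above, for 5 genes, beside 12.1% of all genes. With offsets for GC content and length, SREBF2 was not called between these groups (0.57 ± 0.25, adjusted p = 0.109). In that fit KDAC4 H803A was higher for HMGCS1 (0.93 ± 0.26, adjusted p = 0.0242) and HSD17B7 (0.99 ± 0.33, 0.0479). It was lower for ELOVL6 (-0.92 ± 0.30, 0.0408). Between KDAC7 H709A and KDAC4 H803A, 0 of the 31 and 0% of all genes were called. At an unadjusted p under 0.05 there were 4 of the 31 genes, LSS, MSMO1, DHCR7 and ACACA, and 1118 genes in all, and DESeq2 called 0 of the 31 and 79 genes in all. An overall test of any difference among the 4 groups called 13 of the 31 genes, beside 19.6% of all genes.

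These comparisons changed without KDAC4 H803A 1 and KDAC7 H709A 1. KDAC7 H709A then exceeded KDAC4 H803A for 20 of the 31 genes and was lower for 3, PMVK, SCAP and TM7SF2, beside 61.6% of all genes called and 31.9% called higher. In that fit STARD4 differed by 3.06 ± 0.26, SC5D by 3.56 ± 0.35, INSIG1 by 3.35 ± 0.25 and SCD by 2.63 ± 0.26 (log2 fold change ± SE). KDAC4 H803A was lower than KDAC4 H976Y for 16 genes and higher for 6, beside 60.6% called and 30.6% called lower. Here and between the inactive variants, the share of the 31 genes called in either direction was near the background. KDAC7 H709A exceeded KDAC4 H976Y for 18 genes and was lower for 0, beside 33.9% called and 18.5% called higher. KDAC4 H803A keeps only libraries 2 and 3 in this fit. Those are the KDAC4 H803A libraries in which genes rich in G and C stood high, so a variant effect and this property of the libraries cannot be told apart here.

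**Figure D3:**
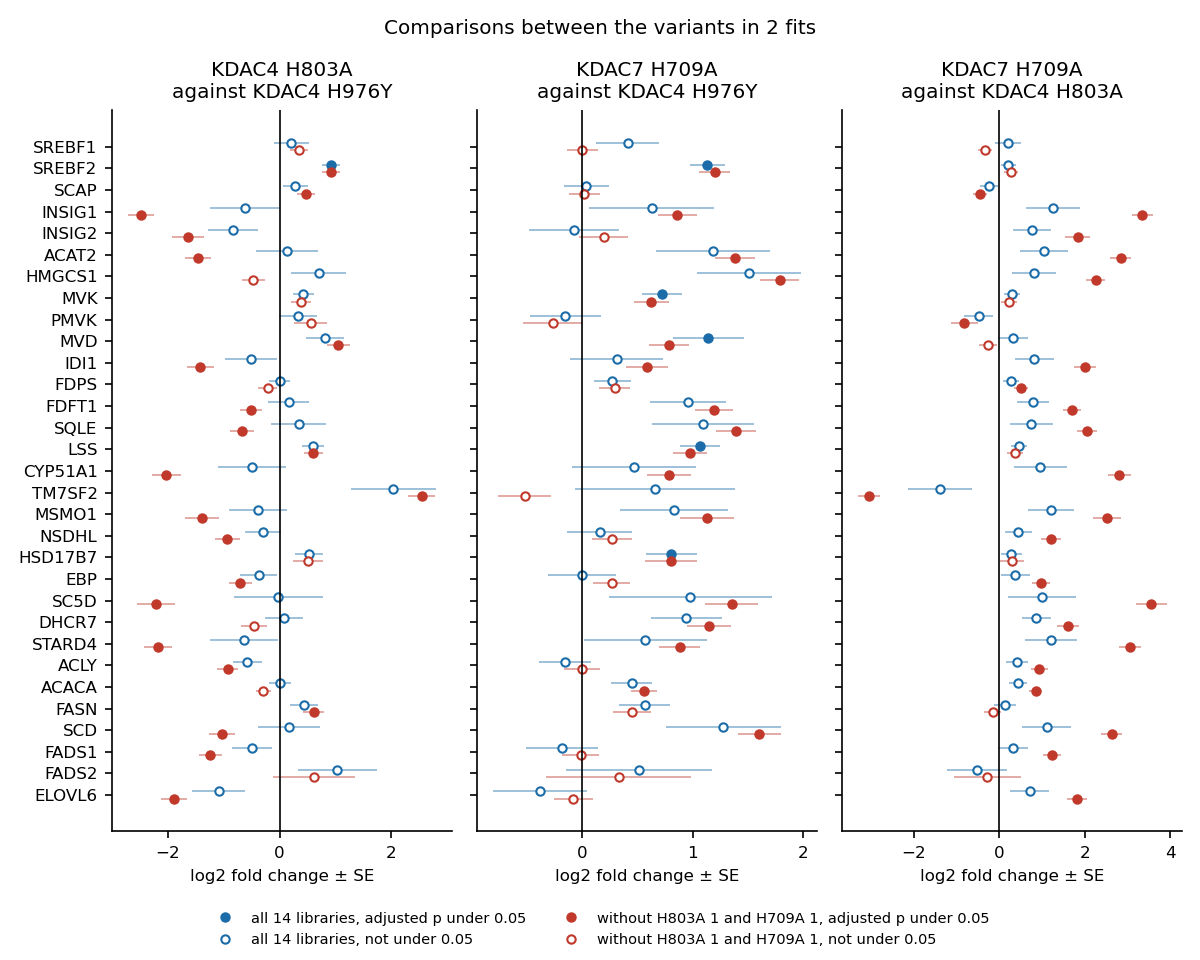
Log2 fold change with its SE for the 31 genes in the 3 comparisons between variants, with all 14 libraries (blue) and without KDAC4 H803A 1 and KDAC7 H709A 1 (red). Filled points have an adjusted p under 0.05. In the right panel no blue point is filled, whereas 23 red points are.

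The regulators did not move together. SREBF2 (ENSG00000198911, chromosome 22, 41833079 to 41907308, plus strand) encodes SREBP-2, and its counts were fractional in all 14 libraries, so some reads were divided among features. It stood at 269.6, 324 and 262 CPM in KDAC4 H803A, at 149, 162, 155 and 137 in KDAC4 H976Y, at 299, 403, 351 and 271 in KDAC7 H709A and at 183, 188 and 173 with TMP195. Both inactive variants lay wholly above KDAC4 H976Y and above the TMP195 libraries. The log2 fold change over KDAC4 H976Y was 0.92 ± 0.17 (SE) for KDAC4 H803A (adjusted p = 0.00366) and 1.13 ± 0.16 for KDAC7 H709A (adjusted p = 0.000634). With TMP195 it fell by 0.87 ± 0.17 against KDAC7 H709A (adjusted p = 0.00901), whereas against KDAC4 H976Y it was 0.27 ± 0.17 (adjusted p = 0.279). Its excess in KDAC7 H709A over KDAC4 H976Y kept its call in all 23 alternatives. The excess in KDAC4 H803A was 0.57 (adjusted p = 0.109) with offsets for GC content and length, and the call against KDAC7 H709A was lost without any 1 of the 3 TMP195 libraries (adjusted p up to 0.0649).

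Its promoter is shown because SREBF2 was the only one of the 27 genes with a window that had a match to the sterol regulatory element searched, and the promoter of LSS because that gene was called in the most comparisons, a choice made after its values were seen. Both windows, 250 bases before to 50 after the start, are from RefSeq on GRCh38.p14, 5′ to 3′ on the gene's strand, with matches to TCACNCCAC, CCAAT (read on either strand) and CACGTG in capitals.
SREBF2 promoter, chr22:41832855-41833154, plus strand: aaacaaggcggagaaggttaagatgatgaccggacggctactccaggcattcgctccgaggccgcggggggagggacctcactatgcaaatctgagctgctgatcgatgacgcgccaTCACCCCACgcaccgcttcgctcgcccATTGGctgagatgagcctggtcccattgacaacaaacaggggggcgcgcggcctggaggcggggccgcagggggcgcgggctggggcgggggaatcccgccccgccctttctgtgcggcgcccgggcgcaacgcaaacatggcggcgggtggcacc
LSS promoter, chr21:46228725-46229024, minus strand: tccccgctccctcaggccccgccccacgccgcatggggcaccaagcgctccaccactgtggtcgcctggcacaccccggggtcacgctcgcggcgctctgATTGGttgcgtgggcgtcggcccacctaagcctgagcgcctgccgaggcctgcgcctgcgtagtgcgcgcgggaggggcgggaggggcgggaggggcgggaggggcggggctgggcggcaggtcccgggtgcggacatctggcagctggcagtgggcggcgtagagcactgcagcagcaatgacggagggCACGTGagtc
In SREBF2 the match TCACCCCAC lies at bases -133 to -125 from the start, and a CCAAT box on the other strand at -106 to -102. In LSS the CCAAT box on the other strand lies at -150 to -146 and CACGTG at 41 to 46 after the start.

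Windows were held for 27 of the 31 genes, 37 windows in all, since some genes have several starts. TCACNCCAC, on either strand, lay in 1 of the 37 (2.70%) and in 1.13% of the 35116 windows of all genes. CCAAT boxes lay in 64.9% of the windows of these genes and in 34.6% of all windows, or 34.5% of the 15589 windows of genes tested here. CACGTG lay in 13.5% against 7.26%, or 9.10% of windows of tested genes, and the GC box GGGCGG in 89.2% against 45.0%, or 63.6% of windows of tested genes. A match describes letters only: windows end 250 bases before the start, and the known sterol elements vary in sequence, so no match says nothing of SREBP binding.

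SREBF1, the gene of SREBP-1, stood at 68.2, 113 and 93.1 CPM in KDAC4 H803A and at 79.1, 87.5, 79.7 and 69.2 in KDAC4 H976Y. It was at 186, 95.5, 76.2 and 62.9 in KDAC7 H709A and at 49.5, 50.7 and 52.7 with TMP195. The TMP195 libraries were the lowest of all 14, but no comparison of SREBF1 was called with all libraries (adjusted p = 0.0702 against KDAC7 H709A). In the fit without KDAC4 H803A 1 and KDAC7 H709A 1 it was lower with TMP195 than in each variant, by -1.002 ± 0.164 (KDAC4 H803A), -0.66 ± 0.14 (KDAC4 H976Y) and -0.66 ± 0.15 (KDAC7 H709A), and GC and length offsets gave calls against KDAC4 H976Y and KDAC7 H709A (-1.11 ± 0.22 and -1.19 ± 0.22). Reads of SREBF1 and of RAI1, which overlaps it on the other strand, may be shared, since the strand setting is not given in the sources used here. SCAP, the escort of SREBPs, went the other way, with 121, 128 and 114 CPM under TMP195, 68.6, 134 and 112 in KDAC4 H803A, 86.9, 94.0, 93.0 and 71.3 in KDAC4 H976Y and 95.2, 93.8, 97.2 and 69.0 in KDAC7 H709A. Every TMP195 library exceeded every KDAC4 H976Y and KDAC7 H709A library, with log2 fold changes of 0.49 ± 0.22 and 0.45 ± 0.22 that were not called with all libraries. They were called without KDAC4 H803A 1 and KDAC7 H709A 1, at 0.46 ± 0.14 and 0.44 ± 0.15.

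INSIG1, which retains SCAP and is itself a target of SREBPs, was at 112 CPM in KDAC4 H803A 1 but 14.2 and 11.8 in KDAC4 H803A 2 and 3. It stood at 75.2, 73.5, 82.6 and 54.0 in KDAC4 H976Y, at 58.5, 113, 167 and 104 in KDAC7 H709A and at 27.4, 28.3 and 24.01 with TMP195. The lowest 2 values of all were thus in KDAC4 H803A, below the TMP195 libraries. INSIG2, its paralog, was lower throughout, from 4.55 in KDAC4 H803A 2 to 26.0 in KDAC7 H709A 3. Its values were 15.96, 4.55 and 5.92 in KDAC4 H803A, 17.6, 15.2, 16.6 and 14.2 in KDAC4 H976Y, 6.56, 13.0, 26.0 and 14.8 in KDAC7 H709A and 7.37, 6.35 and 7.96 CPM with TMP195. Neither INSIG gene was called in any comparison with all libraries. Without KDAC4 H803A 1 and KDAC7 H709A 1, INSIG1 with TMP195 differed by -2.31 ± 0.20 from KDAC7 H709A and by 1.04 ± 0.23 from KDAC4 H803A (adjusted p = 2.31e-06 and 0.00328), opposite directions against these variants.

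In the mevalonate arm, 5 of 7 genes were lower with TMP195 than in KDAC7 H709A. Of all genes, 4.31% were called lower in that comparison and 6.29% in either direction. HMGCS1 (ENSG00000112972, chromosome 5, 43289395 to 43313512, minus strand) encodes the cytosolic HMG-CoA synthase. It stood at 162, 35.3 and 35.6 CPM in KDAC4 H803A, at 51.1, 50.2, 54.2 and 35.6 in KDAC4 H976Y, at 57.2, 123, 206 and 159 in KDAC7 H709A and at 19.2, 17.7 and 17.6 with TMP195. The TMP195 libraries were below every other library, and the spread within the inactive variants was wide. The fall against KDAC7 H709A was the largest among the 31 genes, at a log2 fold change of -2.91 ± 0.56 (adjusted p = 0.00758), and that against KDAC4 H803A was -2.09 ± 0.56 (adjusted p = 0.0453). Without the libraries labelled KDAC4 H803A 1 and KDAC7 H709A 1 these were -3.21 ± 0.20 and -0.95 ± 0.21. The call against KDAC7 H709A was lost without TMP195 2 or 3 (adjusted p up to 0.0524), and that against KDAC4 H803A without any of 10 single libraries (up to 0.174), among them KDAC4 H803A 1, all of KDAC4 H976Y and TMP195, and KDAC7 H709A 2 and 4.

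MVK (ENSG00000110921, chromosome 12, 109573255 to 109598117, plus strand), mevalonate kinase, varied little within groups other than KDAC7 H709A, where it ran from 19.96 to 35.1 CPM. Its values were 23.1, 24.8 and 21.5 CPM in KDAC4 H803A, 16.8, 18.8, 16.02 and 17.3 in KDAC4 H976Y, 35.1, 27.0, 31.8 and 19.96 in KDAC7 H709A and 11.9, 13.6 and 13.0 with TMP195. The 4 groups ranked TMP195, KDAC4 H976Y, KDAC4 H803A, KDAC7 H709A, and only the last 2 overlapped. MVK was lower with TMP195 than in KDAC7 H709A, by -1.15 ± 0.20 (adjusted p = 0.00368), a call kept in all 23 alternatives. It was also lower than in KDAC4 H803A, by -0.85 ± 0.21 (adjusted p = 0.0308), while KDAC7 H709A exceeded KDAC4 H976Y by 0.72 ± 0.18 (adjusted p = 0.0199). These calls were lost without KDAC4 H803A 2 or 3 or any TMP195 library (adjusted p up to 0.145), and without KDAC4 H976Y 1 or 3 (up to 0.0642). With GC and length offsets the difference from KDAC4 H803A was not called (-0.85 ± 0.25, adjusted p = 0.0574). MMAB overlaps MVK on the other strand, at a mean of 19.0 CPM.

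MVD, the decarboxylase that makes isopentenyl diphosphate, stood at 19.6, 42.1 and 38.8 CPM in KDAC4 H803A, at 18.9, 20.5, 19.1 and 17.5 in KDAC4 H976Y, at 70.7, 37.6, 37.9 and 22.1 in KDAC7 H709A and at 10.7, 9.83 and 14.04 with TMP195. Here KDAC7 H709A 1 was the highest library and KDAC4 H803A 1 the lowest of its group, the reverse of HMGCS1. MVD was lower with TMP195 than in KDAC7 H709A, by -1.86 ± 0.36 (adjusted p = 0.0082), and than in KDAC4 H803A, by -1.54 ± 0.37 (adjusted p = 0.0298). KDAC7 H709A also exceeded KDAC4 H976Y, by 1.14 ± 0.32 (adjusted p = 0.0336). The 3 values without KDAC4 H803A 1 and KDAC7 H709A 1 were -1.54 ± 0.20, -1.80 ± 0.21 and 0.79 ± 0.18. The call against KDAC7 H709A was lost without TMP195 1 or 2 (adjusted p up to 0.0555) and that against KDAC4 H803A without KDAC4 H803A 2 or 3 or any TMP195 library (up to 0.138). The call between KDAC7 H709A and KDAC4 H976Y was lost without any KDAC4 H976Y library or KDAC7 H709A 1 or 2 (up to 0.0821).

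IDI1 interconverts the isoprenoid building blocks. It was at 61.9, 16.8 and 19.1 CPM in KDAC4 H803A, at 51.9, 48.6, 53.5 and 31.9 in KDAC4 H976Y, at 24.4, 56.5, 87.1 and 63.4 in KDAC7 H709A and at 12.6, 8.98 and 11.2 with TMP195, where every library was below all others. With TMP195 it was lower than in KDAC7 H709A, by -2.40 ± 0.50 (adjusted p = 0.0116), and than in KDAC4 H976Y, by -2.09 ± 0.49 (adjusted p = 0.0124). FDPS, farnesyl diphosphate synthase, differed less: 129, 99.5 and 86.5 CPM in KDAC4 H803A, 104, 117, 121 and 79.1 in KDAC4 H976Y, 128, 125, 119 and 138 in KDAC7 H709A and 68.0, 69.4 and 63.0 with TMP195. Its log2 fold changes with TMP195 were -0.93 ± 0.19 against KDAC7 H709A (adjusted p = 0.0101) and -0.65 ± 0.19 against KDAC4 H976Y (adjusted p = 0.0302). FDPS counts, like those of SREBF2 and ACAT2, were fractional in all 14 libraries, so some reads were divided among features. Without single TMP195 libraries these 4 calls were lost, for IDI1 against KDAC4 H976Y only without TMP195 2 or 3, and the FDPS call against KDAC4 H976Y also without KDAC4 H976Y 1, 2 or 3, with adjusted p up to 0.131.

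ACAT2, the cytosolic thiolase at the start of the arm, was not called in any comparison with all libraries. Its levels were 76.9, 13.4 and 9.32 CPM in KDAC4 H803A, 33.9, 29.4, 36.1 and 22.0 in KDAC4 H976Y, 41.8, 63.9, 95.2 and 76.0 in KDAC7 H709A and 20.002, 19.5 and 18.3 with TMP195. The KDAC4 H803A libraries ranged 8.25-fold, the widest of the arm, and TCP1 overlaps the gene on the other strand. In the fit without KDAC4 H803A 1 and KDAC7 H709A 1, ACAT2 was called in all 6 comparisons: with TMP195 it was lower than in KDAC7 H709A, by -2.07 ± 0.20, and in KDAC4 H976Y, by -0.69 ± 0.19, but higher than in KDAC4 H803A, by 0.77 ± 0.23. PMVK, phosphomevalonate kinase, had the closest group means of the arm: group means of 7.25 ± 2.57 CPM in KDAC4 H803A (SD, n = 3), 5.72 ± 1.10 in KDAC4 H976Y (n = 4), 5.2001 ± 0.988 in KDAC7 H709A (n = 4) and 6.49 ± 2.45 with TMP195 (n = 3).

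**Figure D4:**
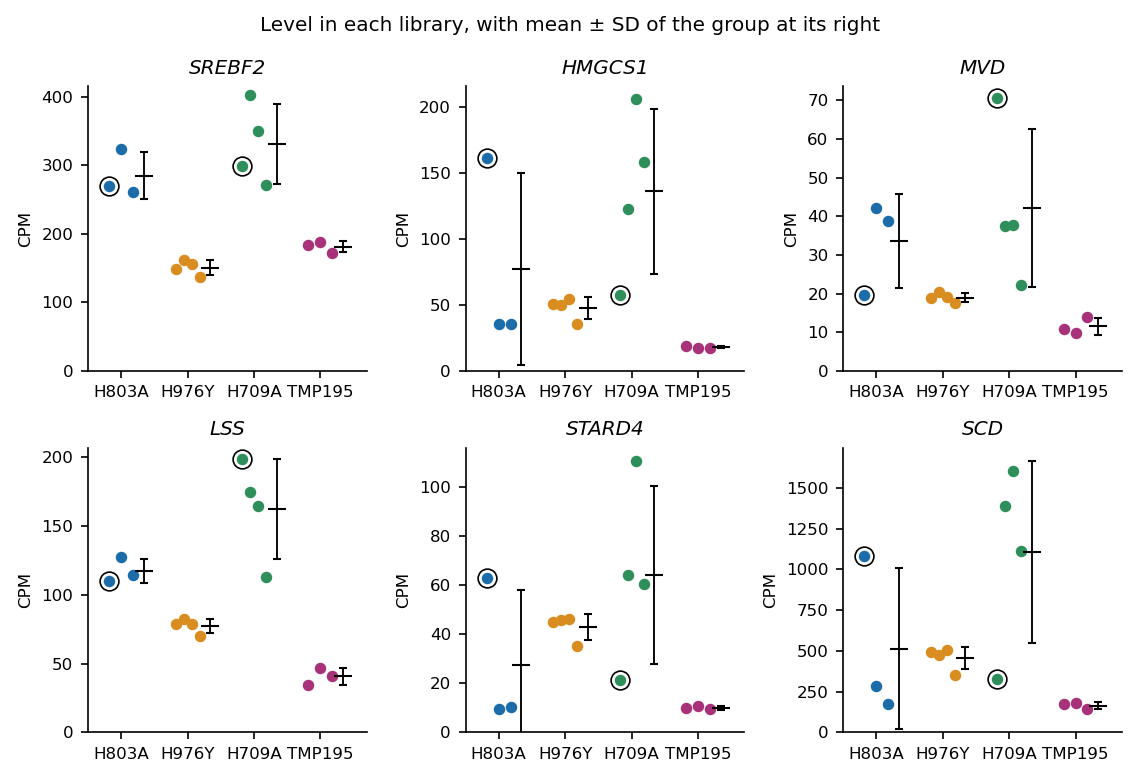
Levels in CPM (linear axes from 0) of SREBF2, HMGCS1, MVD, LSS, STARD4 and SCD in every library (points) of the 4 groups, with the mean and SD of each group as a black mark and bar at its right; bars are cut at 0. Rings mark KDAC4 H803A 1 and KDAC7 H709A 1. The ringed points of HMGCS1, STARD4 and SCD stand apart from their groups, whereas the LSS libraries of KDAC4 H803A lie from 110.5 to 127 CPM.

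In the sterol arm, 5 of 11 genes were lower with TMP195 than in KDAC7 H709A. Over all genes, 4.31% were called lower in that comparison and 6.29% in either direction. LSS was the gene called in the most comparisons, 4 of 6. LSS (ENSG00000160285, chromosome 21, 46188141 to 46228824, minus strand) encodes lanosterol synthase, which closes the sterol rings. It stood at 110.5, 127 and 115 CPM in KDAC4 H803A, at 78.6, 82.5, 78.8 and 70.2 in KDAC4 H976Y, at 199, 175, 165 and 113 in KDAC7 H709A and at 34.7, 46.7 and 40.7 with TMP195. The TMP195 group lay below the rest, KDAC4 H976Y came next, and the inactive variants lay above both and overlapped each other. With TMP195 it was lower by -1.998 ± 0.204 against KDAC7 H709A (adjusted p = 5.22e-05), by -1.53 ± 0.21 against KDAC4 H803A (adjusted p = 0.000648) and by -0.93 ± 0.20 against KDAC4 H976Y (adjusted p = 0.00689). KDAC7 H709A exceeded KDAC4 H976Y by 1.07 ± 0.18 (adjusted p = 0.00203). All 4 calls were kept in the 23 alternatives, with adjusted p of at most 0.047. The values without KDAC4 H803A 1 and KDAC7 H709A 1 were -1.93 ± 0.17, -1.56 ± 0.18, -0.95 ± 0.16 and 0.98 ± 0.15.

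HSD17B7 (ENSG00000132196, chromosome 1, 162790702 to 162812817, plus strand), the sterol keto reductase, was the lowest of these genes in CPM with TMP195. Its levels were 9.25, 8.33 and 10.6 CPM in KDAC4 H803A, 5.21, 6.06, 6.93 and 8.03 in KDAC4 H976Y, 12.2, 10.6, 14.8 and 8.34 in KDAC7 H709A and 4.13, 4.09 and 3.14 with TMP195. As for LSS, the TMP195 libraries lay below all others. The log2 fold change with TMP195 was -1.60 ± 0.26 against KDAC7 H709A (adjusted p = 0.00223), a call kept in all 23 alternatives, and -1.31 ± 0.27 against KDAC4 H803A (adjusted p = 0.0118), lost without TMP195 3 (0.0741). KDAC7 H709A exceeded KDAC4 H976Y by 0.81 ± 0.23 (adjusted p = 0.0363), a call lost without KDAC4 H976Y 1, 2 or 3, KDAC7 H709A 1, 2 or 3, or TMP195 1 or 2 (up to 0.119). That difference was not called with GC and length offsets (0.93 ± 0.31, adjusted p = 0.0507). Its counts were fractional in 13 of the 14 libraries.

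MSMO1, the sterol methyl oxidase, was at 92.7, 25.6 and 22.8 CPM in KDAC4 H803A, at 65.3, 72.0, 70.8 and 38.3 in KDAC4 H976Y, at 38.4, 111, 199 and 91.3 in KDAC7 H709A and at 17.0, 18.6 and 15.05 with TMP195. SQLE, squalene epoxidase, was at 108, 30.8 and 25.0, then 45.6, 46.0, 47.9 and 33.2, then 34.3, 85.0, 131 and 118, and at 27.4, 27.5 and 19.5 CPM in the same order of groups. DHCR7, which catalyses a last step to cholesterol, was at 98.2, 50.2 and 38.2, then 59.3, 65.4, 69.6 and 42.4, then 66.9, 138, 154 and 97.6, and at 41.3, 43.0 and 28.8 CPM. In these 3 genes KDAC4 H803A 1 stood with KDAC7 H709A 2, 3 and 4, and KDAC7 H709A 1 lay below the rest of its group. With TMP195 they were lower than in KDAC7 H709A, by -2.70 ± 0.58 (MSMO1, adjusted p = 0.0145), -1.89 ± 0.52 (SQLE, 0.046) and -1.60 ± 0.36 (DHCR7, 0.0189), and MSMO1 was lower than in KDAC4 H976Y, by -1.87 ± 0.56 (0.0365). Each call was lost without any 1 TMP195 library, that of MSMO1 against KDAC4 H976Y also without KDAC4 H976Y 1, 2 or 3, and that of SQLE also without any KDAC4 H976Y library or KDAC7 H709A 2, 3 or 4 (adjusted p up to 0.19). Without KDAC4 H803A 1 and KDAC7 H709A 1, the differences from KDAC7 H709A were -3.03 ± 0.29, -2.22 ± 0.20 and -1.83 ± 0.22.

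CYP51A1, SC5D and FDFT1 overlapped between KDAC4 H803A 2 and 3 and the TMP195 libraries, or lay lower in the former, and were not called with all libraries. Without KDAC4 H803A 1 and KDAC7 H709A 1 they were lower with TMP195 than in KDAC7 H709A, by -2.40 ± 0.22, -2.90 ± 0.28 and -1.60 ± 0.18. CYP51A1, the lanosterol demethylase, was at 162, 30.5 and 19.96 CPM in KDAC4 H803A, at 102, 110.3, 117 and 72.1 in KDAC4 H976Y, at 45.4, 129, 211 and 170.5 in KDAC7 H709A and at 33.9, 36.5 and 29.9 with TMP195. SC5D, a sterol desaturase, spanned the widest range of the 31 genes, 18.2-fold from 3.18 to 58.0 CPM. Its values were 41.8, 4.26 and 3.18 in KDAC4 H803A, 17.0, 17.1, 20.8 and 12.2 in KDAC4 H976Y, 5.41, 27.9, 58.0 and 41.4 in KDAC7 H709A and 7.18, 5.98 and 4.48 with TMP195. Both genes are poor in G and C, at 41.5% and 38.6%. FDFT1, squalene synthase, was at 143, 60.9 and 47.3, then 84.6, 78.5, 80.1 and 56.6, then 75.3, 144, 213 and 149.97, and at 60.9, 59.96 and 52.8 CPM in the same order. Its log2 fold change with TMP195 was -1.33 ± 0.38 against KDAC7 H709A (adjusted p = 0.0566).

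TM7SF2, a sterol reductase rich in G and C (64.2%), ran opposite to its neighbours in the arm. It was at 33.1 and 38.2 CPM in KDAC4 H803A 2 and 3 but 3.36 in KDAC4 H803A 1, and at 26.1 CPM in KDAC7 H709A 1 but 5.47, 3.63 and 3.40 in KDAC7 H709A 2, 3 and 4. KDAC4 H976Y held 5.35, 5.64, 4.87 and 8.44 CPM and the TMP195 libraries 9.84, 9.22 and 13.0. With all libraries it was not called, and without KDAC4 H803A 1 and KDAC7 H709A 1 KDAC4 H803A exceeded KDAC4 H976Y by 2.54 ± 0.24 (adjusted p = 2.19e-06). VPS51 overlaps TM7SF2 on the same strand. NSDHL, a sterol dehydrogenase, and EBP, a sterol isomerase, had close group means: the highest was 1.418 and 1.304 times the lowest. NSDHL ran from 9.32 to 23.9 CPM and EBP from 10.9 to 35.2, and neither was called with all libraries. Both were called for KDAC7 H709A over KDAC4 H803A without KDAC4 H803A 1 and KDAC7 H709A 1, at 1.21 ± 0.23 for NSDHL and 0.98 ± 0.21 for EBP.

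STARD4 (ENSG00000164211, chromosome 5, 111496033 to 111512590, minus strand) encodes a carrier that moves cholesterol between membranes. Its levels were 62.9, 9.40 and 10.2 CPM in KDAC4 H803A, 44.9, 46.1, 46.2 and 35.2 in KDAC4 H976Y, 21.4, 64.4, 111 and 60.5 in KDAC7 H709A and 9.97, 10.9 and 9.36 with TMP195. KDAC4 H803A 2 and 3 thus stood with the TMP195 libraries and KDAC4 H803A 1 with KDAC7 H709A. With TMP195 it was lower than in KDAC7 H709A, by -2.67 ± 0.66 (adjusted p = 0.03), and than in KDAC4 H976Y, by -2.10 ± 0.64 (adjusted p = 0.041). Against KDAC4 H803A the log2 fold change was -1.45 ± 0.65 with all libraries and 0.06 ± 0.25 without KDAC4 H803A 1 and KDAC7 H709A 1. Both calls were lost without any 1 TMP195 library, KDAC7 H709A 2 or 4, and further without KDAC7 H709A 3 in the one and any KDAC4 H976Y library in the other (adjusted p up to 0.139).

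In the fatty acid arm, 2 of 7 genes were lower with TMP195 than in KDAC7 H709A and 1 was lower than in KDAC4 H976Y, beside 4.31% and 8.55% of all genes called lower, and 1 of 7 is near that background. SCD (ENSG00000099194, chromosome 10, 100347124 to 100364834, plus strand), the desaturase that makes monounsaturated fatty acids, varied most in absolute level. It was at 1080.1, 284 and 176 CPM in KDAC4 H803A, at 495, 476, 504 and 354 in KDAC4 H976Y, at 327, 1386, 1604 and 1115 in KDAC7 H709A and at 173, 179 and 142 with TMP195. FASN, fatty acid synthase, was at 679, 1235 and 1074, then 772, 792, 740.1 and 651, then 1394, 1190.3, 1118 and 682, and at 521, 522 and 482 CPM in the same order of groups. The TMP195 libraries of FASN were the lowest of all, whereas those of SCD overlapped KDAC4 H803A. The log2 fold changes with TMP195 against KDAC7 H709A were -2.75 ± 0.61 for SCD (adjusted p = 0.0184) and -1.11 ± 0.26 for FASN (adjusted p = 0.0212). Without KDAC4 H803A 1 and KDAC7 H709A 1 they were -3.10 ± 0.22 and -1.02 ± 0.19. Both calls were lost without any 1 TMP195 library, and that of FASN without KDAC7 H709A 2 (adjusted p up to 0.103).

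FADS1 and FADS2, desaturases of polyunsaturated fatty acids, lie on opposite strands of chromosome 11 and overlap, so their reads may be shared. FEN1 overlaps FADS2 on the same strand, at a mean of 114 CPM. FADS1 was at 248, 93.6 and 77.5 CPM in KDAC4 H803A, at 209.6, 203, 220.1 and 155 in KDAC4 H976Y, at 119, 151, 186 and 241 in KDAC7 H709A and at 88.3, 92.2 and 86.5 with TMP195. It was lower with TMP195 than in KDAC4 H976Y, by -1.15 ± 0.36 (adjusted p = 0.045), a call lost without any 1 TMP195 library, KDAC4 H976Y 1, 2 or 3, or KDAC7 H709A 2 or 3 (up to 0.147). FADS2 divided the KDAC7 H709A libraries another way: 103 and 159 CPM in libraries 1 and 4, but 11.2 and 11.8 in libraries 2 and 3, the lowest of all 14. It was at 150.4, 88.0 and 68.1 in KDAC4 H803A, at 55.0, 50.7, 53.6 and 39.96 in KDAC4 H976Y and at 27.7, 31.8 and 25.0 CPM with TMP195, and was not called.

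ELOVL6, which elongates saturated fatty acids, was at 44.0, 17.7 and 11.0 CPM in KDAC4 H803A, at 52.5, 56.4, 59.4 and 38.7 in KDAC4 H976Y, at 13.5, 44.2, 58.3 and 43.1 in KDAC7 H709A and at 38.9, 35.7 and 33.6 with TMP195. It was lowest in KDAC4 H803A 2 and 3 and KDAC7 H709A 1 and not in the TMP195 libraries, and was not called with all libraries. It was lower in KDAC4 H803A than in KDAC4 H976Y both with GC and length offsets (-0.92 ± 0.30) and without KDAC4 H803A 1 and KDAC7 H709A 1 (-1.89 ± 0.23), and in the latter fit TMP195 exceeded KDAC4 H803A by 1.34 ± 0.23. The enzymes that supply and activate acetyl-CoA had the closest group means of the arm. ACLY, which makes cytosolic acetyl-CoA from citrate, had group means of 283 ± 98.2, 422 ± 78.4, 379.8 ± 77.5 and 378 ± 45.6 CPM (SD) in KDAC4 H803A, KDAC4 H976Y, KDAC7 H709A and TMP195. ACACA, acetyl-CoA carboxylase, had 177 ± 52.0, 175 ± 14.1, 239.6 ± 38.2 and 159.7 ± 6.65 CPM. Neither was called with all libraries, and the log2 fold change of ACLY with TMP195 against KDAC7 H709A was -0.01 ± 0.25. In the fit without KDAC4 H803A 1 and KDAC7 H709A 1, KDAC7 H709A exceeded KDAC4 H803A by 0.94 ± 0.20 for ACLY and 0.85 ± 0.14 for ACACA.

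Per kilobase of the effective length that the length column gives, FASN (138 CPM per kb), FDPS (129), SCD (116) and ACLY (109) were the highest of the 31 genes and PMVK (5.88), INSIG2 (6.56) and HSD17B7 (9.63) the lowest, as means over the 14 libraries. The ranges of neighbours in this order overlapped in every case. The length used matters for the order: per kilobase of all annotated exons SCD (110.5), FASN (90.4) and ACLY (71.1) led, FDPS fell to 27.8 and HSD17B7, at 1.67, was lowest.

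Within KDAC4 H803A and within KDAC7 H709A, the differences between libraries followed the GC content of the genes. GC content ran from 34.2% (STARD4) to 65.3% (FASN) over the 31 genes, with a median of 50.2% against 48.1% over all genes tested. The mean of KDAC4 H803A 2 and 3 minus KDAC4 H803A 1 had a Pearson r of 0.79 (Spearman rho 0.82) with GC content across the 31 genes. KDAC7 H709A 1 minus the mean of the other KDAC7 H709A libraries had an r of 0.81 (rho 0.85). Over the 17643 genes with a GC value r was 0.59 in both, and genes of 1 library are not independent replicates. At the lower end SC5D differed by -3.45 and -2.87 log2 units in these contrasts and STARD4 by -2.66 and -1.81, whereas TM7SF2 differed by 3.34 and 2.63. HSD17B7 stood off the trend, with a GC content of 41.7% and differences of 0.03 and 0.15. FDPS, SREBF2, MVK and LSS, between 56.0% and 58.3% GC, differed by -0.48 to 0.44 log2 units, whereas DHCR7, at 58.3%, differed by -1.16 and -0.93.

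**Figure D5:**
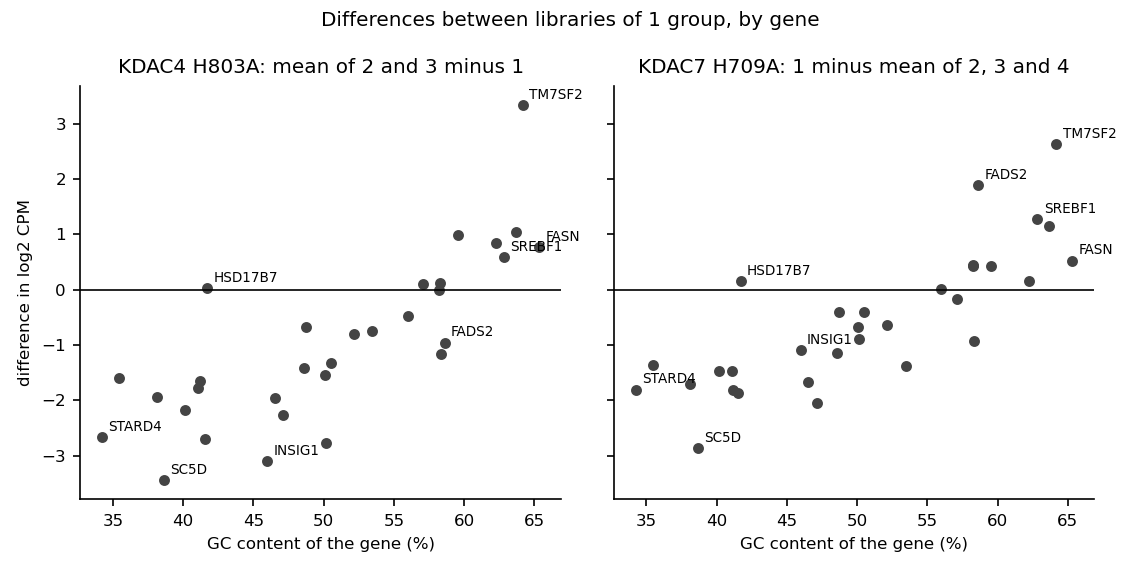
Difference in log2 CPM between libraries of 1 group (vertical axis) against the GC content of the gene in percent (horizontal axis) for the 31 genes, with 8 genes named. Left, KDAC4 H803A 2 and 3 minus 1; right, KDAC7 H709A 1 minus 2, 3 and 4. Points rise with GC content in both panels (r = 0.79 and 0.81).

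A list of 49 further genes of SREBP processing, sterol turnover and fatty acid metabolism, of which 47 passed the filter on low counts, gave few calls. With TMP195, 2 were lower and 0 higher than in KDAC7 H709A, 3 lower and 2 higher than in KDAC4 H976Y, and 1 lower and 1 higher than in KDAC4 H803A, shares near or below the 6.29%, 16.5% and 5.34% of all genes called. Among the variants, KDAC7 H709A exceeded KDAC4 H976Y for 2, 2 were lower in KDAC4 H803A than in KDAC4 H976Y, and 0 were called between KDAC7 H709A and KDAC4 H803A, beside 12.5%, 15.1% and 0% of all genes. None of the 13 genes of SREBP processing, which include the site proteases and the partners NFY and SP1, was called in any comparison. LPIN1, a phosphatidate phosphatase, was lower with TMP195 than in each variant, with log2 fold changes of -1.43 ± 0.18, -0.68 ± 0.17 and -1.07 ± 0.19 against KDAC7 H709A, KDAC4 H976Y and KDAC4 H803A. ACSS2, which makes acetyl-CoA from acetate, was higher with TMP195 than in KDAC4 H976Y and KDAC4 H803A, by 1.06 ± 0.19 and 0.86 ± 0.20, and stood at 49.8 ± 3.26 CPM with TMP195 (SD, n = 3) and 41.9 ± 7.30 in KDAC7 H709A (n = 4). SCD5 was lower with TMP195 than in KDAC7 H709A, by -1.13 ± 0.26.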

How the data were processed

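RNA-seq libraries of HT1080 cells were compared between 4 groups set by the labels (3 KDAC4 H803A, 4 KDAC4 H976Y, 4 KDAC7 H709A and 3 TMP195 count libraries). The authors deposited expected counts per gene, which need not be whole, made with Trimmomatic 0.39, Bowtie2 2.4.5 and RSEM 1.3.3 on GRCh38, per the submitters' processing notes, which also name DESeq2 1.38.2. Of the strand setting and the annotation release, nothing is stated in the sources used here. The column of KDAC4 H803A replicate 4 was left out, since 96.8% of 7612 genes with 1 transcript held their length minus 248.86 there. Expected counts as deposited were rounded, filtered with filterByExpr (minimum count 10, minimum total 15), scaled by TMM and fitted over all 14 libraries with edgeR 4.0.16 (limma 3.58.1, R 4.3.3), with Benjamini-Hochberg adjustment over 17780 genes and a threshold of 0.05. Depth was 6151417 to 24297525 counts per library.

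The 31 genes and the lists were chosen with earlier results of these data known. Values in every library are printed for genes called in any pairwise comparison, for the regulators and for genes whose highest group mean was at least 2 times the lowest; the others are given by means or ranges. Positions are from GENCODE v29 on GRCh38. The script was tested on simulated data for TMP195 against KDAC7 H709A with 17179 genes, where it recovered 83 of 100 4-fold and 100 of 100 16-fold changes with 11 false calls. The simulation held no library lying with another group and no shift with GC content, so these rates need not hold for the data. Alternatives were RLE size factors, DESeq2 1.42.0, no filter, GC and length offsets, only the compared groups, a replicate block, and leaving out libraries singly or together; GC offsets together with 2 libraries left out was chosen after seeing the data.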

Additional observations from a re-analysis of the deposited data

Results flagged for a closer look

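In each group of 4 libraries, the library at either end was compared with its nearest neighbour. A gap above the 95% critical value of Dixon's test was marked, which chance gives in about 1 of 20 groups; 4 of 62 groups were marked. SCAP was at 69.0 CPM in KDAC7 H709A 4, below the other 3 at 93.8 to 97.2. SQLE was at 33.2 CPM in KDAC4 H976Y 4, against 45.6 to 47.9 in the others. STARD4 in the same library was at 35.2 CPM, against 44.9 to 46.2, and that library had the highest share of mitochondrial ribosomal RNA, 31.5%; the part of that share was not tested. TM7SF2 was at 26.1 CPM in KDAC7 H709A 1, against 3.40 to 5.47 in the others.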

How the results depend on the processing

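Counts below are of the 31 genes, with all genes in brackets, for KDAC4 H976Y set against KDAC4 H803A and then against KDAC7 H709A, for the 2 inactive variants against each other, for TMP195 against KDAC4 H803A, KDAC4 H976Y and KDAC7 H709A, and for any difference, in this order. With all libraries they were 1 (2679), 5 (2218), 0 (0), 5 (949), 6 (2936), 14 (1119) and 13 (3478). DESeq2 gave 3 (4377), 9 (3394), 0 (79), 10 (1936), 11 (4493), 22 (2484) and 20 (6145). Without KDAC4 H803A 1 and KDAC7 H709A 1 they were 22 (11173), 18 (6250), 23 (11360), 15 (7672), 23 (8908), 27 (8787) and 29 (14894). Leaving out KDAC7 H709A 4 too gave 25 (11848), 21 (5829), 23 (11044), 18 (8792), 24 (9895), 28 (8392) and 30 (15123). GC and length offsets with the first 2 left out, chosen after seeing the data, gave 21 (9771), 20 (6325), 27 (9013), 14 (6974), 21 (8176), 25 (5673) and 28 (13808).

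Offsets alone gave 3 for the first and 11 for TMP195 against KDAC4 H976Y, and 3514 genes for KDAC7 H709A against KDAC4 H976Y. RLE size factors gave 2 for the first. Without the filter, 14 genes were called between KDAC7 H709A and KDAC4 H803A. With only the compared groups in the fit there were 3 (1634) for the first, and 2 (366) and 26 (9576) for TMP195 against KDAC4 H803A and KDAC4 H976Y. Other counts under these alternatives, those of all genes where none is printed among them, stayed within 1.5 times the counts with all libraries. Leaving out 1 library gave ranges of 1 to 18 (1129 to 8431), 2 to 12 (1215 to 3440), 0 to 19 (0 to 4788), 1 to 9 (436 to 2695), 1 to 13 (1307 to 5079), 3 to 22 (422 to 2755) and 6 to 28 (2053 to 10287), and the highest counts of the first and the third came without KDAC4 H803A 1. The causes were not tested.

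Same-numbered libraries had correlations of their deviations from group means from -0.687 to 0.358, with 5 of 19 over 0.1. Differently numbered libraries were not set beside them, so these values do not settle whether replicate numbers pair the libraries. With a replicate block there were 2 (1322), 1 (563), 2 (1556), 9 (453) and 6 (1749) for KDAC7 H709A against KDAC4 H976Y, the 3 TMP195 comparisons and any difference, and 1230 genes for KDAC4 H803A against KDAC4 H976Y. No fold change of the 31 genes that was called with all libraries changed sign in any alternative. Genes called only in an alternative were not counted in this. For KDAC4 H803A over KDAC4 H976Y, the median log2 fold change of the 31 genes was 0.13 with all libraries. Without KDAC4 H803A 1 and KDAC7 H709A 1 it was -0.51.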
